A study of Carassius gibelio with 26 samples.

Results

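Testis RNA of 5 triploid gibel carp (Carassius gibelio) males, called group 1, was compared with testis RNA of 10 diploid males, called 2n. They were chosen by their sample titles and make up 15 of the 26 males sequenced, with 1 RNA-seq library per male and all males 2 years old. Group 1 males hatched from eggs activated with sperm of Carassius gibelio, Cyprinus carpio or Abramis brama; which sperm made which male is not given. By the series' design text, eggs of their mother gave no sex-reversed males at 22 °C and sex-reversed males throughout when warm, and the library names put replicates 1 to 3 at 31 °C and replicates 4 and 5 at 28 °C. The 2n males came from sexual crosses between diploid parents, with eggs kept at 22 °C. The design text names sex determination as the question behind comparing 2n males with each triploid group. The other triploid males, group 2 (5 males, all at 31 °C by their library names) and group 3 (6 males, 22 °C), came from a mother whose offspring often reversed sex at 22 °C, and enter only where a gene of group 1 is set against them. Ploidy, parentage, mode of reproduction and temperature therefore differ together between group 1 and 2n, and their parts in any difference cannot be told apart. The library names also hold a second number of unstated meaning, which was 4, 6, 5, 5 and 4 in group 1 replicates 1 to 5. Among 2n males it was 14 for replicates 1, 2, 5, 6 and 7, 108 for replicates 4, 8, 9 and 10, and 106 for replicate 3. Group 1 males that share a mother may carry nearly the same genome, so that the p-values would then rest on the spread among relatives.

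Gibel carp exists as sexual diploids and as triploid lines that reproduce by gynogenesis, in which sperm triggers development of the egg and its genes are normally discarded. Offspring of a gynogenetic female are usually daughters that inherit her genome. Warmth during early life can turn genetic females of many fish species into males, whose gonads then develop as testes. A testis holds germ cells at all stages of sperm formation beside Sertoli, Leydig, vessel and blood cells, and RNA of the whole organ sums over them. In such bulk RNA, fewer cells of a type and less RNA per cell cannot be told apart. Extra chromosome sets raise the copy number of every gene together, so that counts scaled to the library show only changes of some genes relative to others.

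Reads had been counted on the genes of the goldfish, a close relative, and all positions below are on its annotation ASM336829v1. The table holds 62131 genes, and the gibel carp gene table used here matched 0 of their IDs. Genes of the nuclear genome are therefore given by ID or position, and the labelled tissue was not checked against testis markers. Total counts were 24323337 ± 1353055 per library in group 1 (SD, n = 5) and 22341355 ± 3688902 in 2n (SD, n = 10), and the lowest total of all was 15375923.

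Group 1 replicates 1 and 2 stood apart from the other males of their group. In the principal component plot of log2 CPM (counts of a gene scaled to a common library size), the first component held 32.9% of the variance. It placed replicates 1 and 2 at 156 and 140, replicates 3 to 5 between 45 and 61, and the 2n males between −106 and 4. Gene levels of replicates 3 to 5 had a median rank correlation of 0.990 among themselves, those of replicates 1 and 2 had 0.980 with each other, and the median between these sets of males was 0.938. Diploid males were divided as well, by library number. Their median rank correlation was 0.959 within number 14, 0.964 within number 108 and 0.932 between these numbers, and the second component separated them. The counts of changed genes below are therefore also given without group 1 replicates 1 and 2 and against 2n males of 1 number at a time.

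**Figure D1:**
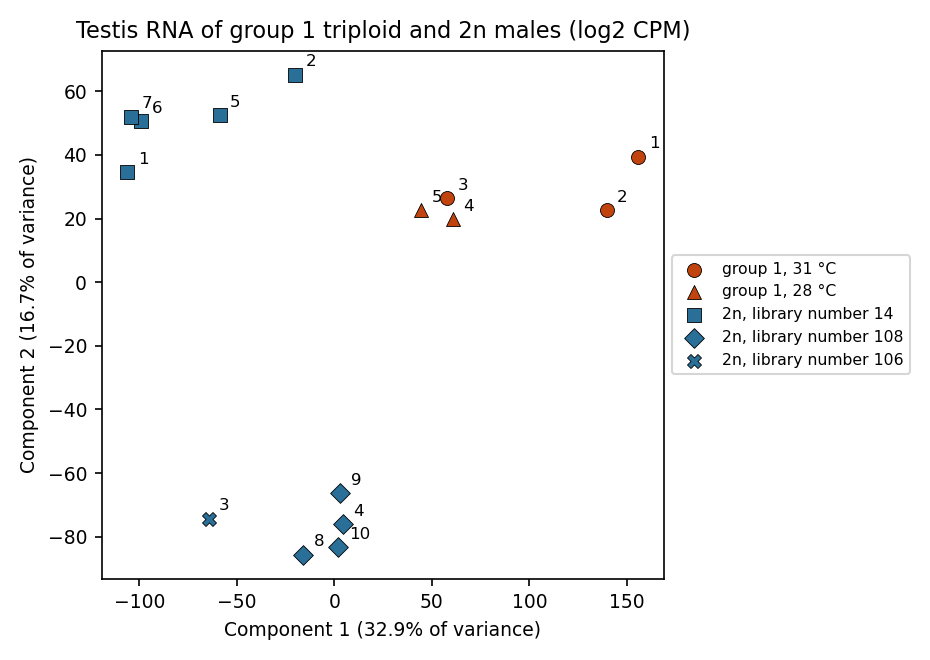
Principal components 1 and 2 of log2 CPM over the tested genes, with axes labelled by the percent of variance they hold; each point is 1 male, numbered by its replicate. Group 1 males (orange; circles for 31 °C, triangles for 28 °C) lie to the right of every 2n male (blue; squares for number 14, diamonds for 108, cross for 106), with group 1 replicates 1 and 2 farthest right.

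Many genes differed between group 1 and 2n, and the median change among those that passed the test was about 2-fold. Over all tested genes, the middle 50% of log2 fold changes ran from −0.33 to 0.38. Of 41539 genes tested, 7355 (17.7%) passed edgeR's quasi-likelihood test with a Benjamini-Hochberg adjusted p under 0.05. In group 1 4093 genes (9.85%) were higher and 3262 (7.85%) were lower than in 2n. The median log2 fold change of the higher genes was 1.11 (middle 50% of genes from 0.83 to 1.59), and that of the lower genes was −0.75 (−1.34 to −0.51). At least 2-fold changes were found in 2450 higher and 1169 lower genes, at least 4-fold changes in 587 and 451, and at least 16-fold changes in 70 and 94. Below 2-fold, 1643 called genes were higher and 2093 lower, and from 2-fold to under 16-fold 2380 were higher and 1075 lower. With the scaling between libraries used here (TMM), lower calls thus outnumbered higher ones among the smallest and the largest changes, and higher calls between them. These size classes were not counted with other scalings.

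The medians of the called genes lay on the same side in each of the 5 group 1 males. Relative to the 2n mean, the median log2 deviation of the 4093 higher genes was 1.35, 1.25, 1.05, 1.1 and 0.95 in group 1 replicates 1 to 5, and lay between −0.29 and 0.23 in 2n males. For the 3262 lower genes it was −0.90, −0.80, −0.65, −0.65 and −0.60 in group 1, and between −0.11 and 0.16 in 2n males. These medians describe genes chosen on the same values. Without reference to the test, all 5 group 1 males lay above all 10 2n males in 1738 genes (4.18%) and below all of them in 954 (2.3%). This split depended on the scaling between libraries, at 1618 and 1134 genes with RLE and 2158 and 525 with upper-quartile scaling.

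The count of changed genes depended on which group 1 males were in the fit. Without replicates 1 and 2 2493 of 42509 tested genes were called (5.86%), of which 1618 were higher (3.81%) and 875 lower (2.06%) than in 2n. Leaving out replicate 1 alone gave 4386 called genes, and leaving out replicate 2 alone gave 4154. Leaving out 1 of replicates 3 to 5 gave 5222 to 5963, and leaving out replicates 4 and 5 together gave 4727. Each of these fits called fewer genes than the fit of all 5 group 1 males. With 3 group 1 males in the fit, the count was 4727 without replicates 4 and 5 and 2493 without replicates 1 and 2. The calls without both replicates held 1407 of the 4093 higher genes and 820 of the 3262 lower genes, and 0 genes were called in opposite directions. Against 2n males of number 14, group 1 had 6017 higher genes (15%) and 4665 lower ones (11.7%). Against those of number 108, 3995 were higher (9.65%) and 2960 lower (7.15%). A core of 1188 higher and 613 lower genes was called in all 4 of these fits, which share samples.

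The balance of higher and lower calls depended on the scaling between libraries, and also on the model and the males in the fit. With the TMM scaling used here 55.6% of calls were higher in group 1, and the median over every tested gene lay at −0.01 (log2 fold change). Upper-quartile scaling moved that median to 0.12 and the share of higher calls to 73.7%, and total counts alone moved them to 0.15 and 72.7%. RLE scaling gave 49.1% higher calls. With TMM scaling kept, the replicate block gave 1767 calls, 68.6% of them higher, and the fit of group 1 males at 28 °C alone gave 936, 78.7% of them higher. The 4-group model of all 26 males, also with TMM scaling, gave 13558 calls with 45.6% higher. DESeq2 gave 11271 with 47.5% higher.

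Among called genes, those with low counts were more often higher than lower in group 1, and abundant ones more often lower with the TMM scaling. Among genes with a mean log2 CPM under 0, 14.9% were called higher and 4.89% lower in group 1, and the median log2 fold change was 0.30. Between 4 and 6, group 1 had 3.8% of genes higher and 12.7% lower (median −0.15). Between 6 and 8 these shares were 1.51% and 10.3% (median −0.20). The median under 0 stayed positive with RLE (0.26) and upper-quartile scaling (0.42), and the median between 6 and 8 stayed negative with both (−0.24 and −0.08). The excess of lower calls among abundant genes depended on the scaling. With the upper quartile, 638 genes were higher and 645 lower between 4 and 6, 99 and 171 between 6 and 8, and 19 and 13 over 8. When genes were sorted by their 2n level alone, the median difference of group 1 from 2n was 0.53 in the lowest class and −0.28 in the highest. Sorted by their group 1 level alone, it was 0.04 in the lowest class and −0.04 in the highest, so the size of the trend at both ends depends on how genes are sorted.

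Among group 1 males, abundant transcripts were low mainly in replicates 1 and 2. For genes with a 2n mean log2 CPM of 6 to 8, the median deviation from the 2n mean was −0.63 and −0.42 in replicates 1 and 2. It was −0.04 in each of replicates 3 to 5. Over 8, replicates 1 and 2 lay at −0.86 and −0.47, and replicates 3 to 5 at 0.05, 0.02 and 0.11. Of the 2n males, replicate 2 was low as well, at −0.26 for 6 to 8 and −0.41 over 8. The other 2n males ran from −0.13 to 0.16 for 6 to 8 and from −0.11 to 0.20 over 8. For the rarest genes, all 5 group 1 males lay above the 2n mean, by 0.69, 0.69, 0.43, 0.54 and 0.36. Without replicates 1 and 2, the share of genes called lower between 4 and 6 was 3.19%, and the share called higher under 0 was 5.76%.

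**Figure D2:**
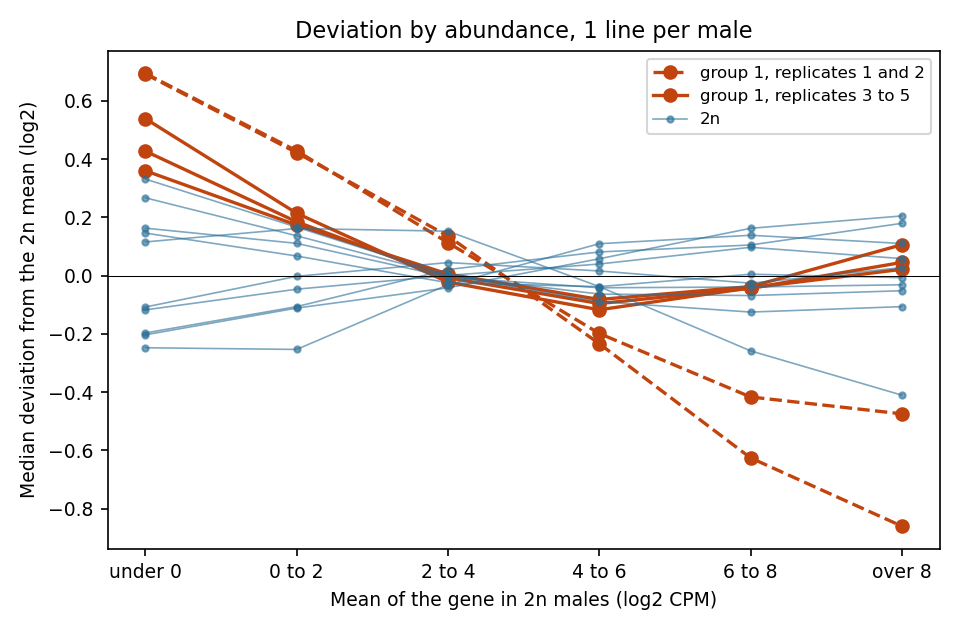
Median log2 deviation from the 2n mean (vertical axis), with TMM scaling. Genes are sorted into classes by their mean log2 CPM in 2n males (horizontal axis), and each line is 1 male. Group 1 replicates 1 and 2 (dashed orange) run from 0.69 in the lowest class to −0.86 and −0.47 in the highest. Replicates 3 to 5 (solid orange) return to near 0 in the upper classes. The 2n males (blue) spread around 0, from −0.25 to 0.33 in the lowest class and from −0.41 (replicate 2) to 0.20 in the highest.

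Within group 1, replicates 1 and 2 both lay more than 2-fold below each of replicates 3 to 5 in a block of 2419 genes. These were 5.82% of the genes tested, whereas 68 genes (0.164%) were more than 2-fold higher. Both counts rest on the TMM scaling, whose larger factors in replicates 1 and 2 (1.31 and 1.23) lower all their values. No other scaling was tried for these counts. The genes of this block, chosen on these values, held 4.23% and 5.20% of all counts in group 1 replicates 1 and 2 and 19.1%, 19.1% and 21.4% in replicates 3 to 5, against 11.3% to 25.3% in the 2n males. Their median log2 CPM was 2.78 in replicates 1 and 2, 5.27 in replicates 3 to 5 and 4.91 in 2n. The low level was thus that of 2 males only. With all 5 males in the fit, 84 of the 2419 genes (3.47%) were called lower than in 2n and 68 (2.81%) higher. The shares over all tested genes were 7.85% and 9.85%, but the choice of the block widens its spread within group 1, which by itself lowers the number of calls. Without replicates 1 and 2, 14 of its genes were called lower and 196 higher, beside 2.06% and 3.81% of all tested genes. That count rests on the choice too, since the block was picked for higher levels in replicates 3 to 5 than in 1 and 2. On the numbered chromosomes the block took from 2.36% of tested genes (chromosome 45) to 10% (chromosome 33). What separates these 2 males from the other 3 is not given in the labels, and replicate 3 shares their 31 °C.

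The largest rise was in ENSCARG00000050413, a gene on unplaced scaffold QPKE01007574.1 (563230 to 576362, plus strand). It had 6.85, 7.80, 7.27, 6.90 and 6.95 CPM in group 1 replicates 1 to 5, against 0 counts in each of the 10 2n males. The values of the 5 triploid males are nearly equal. Against a floor of 3 counts over the 2n group (0.0138 CPM), the group 1 mean of 7.16 ± 0.40 CPM (SD, n = 5) was at least 518-fold higher (adjusted p = 1.7e-06, edgeR). Compared with the other triploid males it did not differ detectably, with log2 fold changes of −0.01 ± 0.15 (SE) against group 2 (adjusted p = 0.96, edgeR 4-group model) and −0.05 ± 0.14 against group 3 (adjusted p = 0.77, edgeR). It was the only gene with 0 counts in all 2n males and at least 1 CPM in every group 1 male, and 1 more gene had at least 1 CPM in some but not all of them.

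The next largest rise among the eligible genes was in ENSCARG00000017953 (chromosome 13, 15121708 to 15128638, plus strand). This gene set group 1 apart from the diploid and the other triploid males. Its level was 8.00, 7.32, 5.38, 5.68 and 5.07 CPM in group 1. In 2n males it ran from 0 to 0.0981 CPM with a median of 0.0194, from 6 counts in all. The log2 fold change was 7.58 ± 0.40 (SE, adjusted p = 8.6e-09, edgeR). Group 1 also exceeded group 2 by 6.66 ± 0.51 (adjusted p = 1e-09, edgeR) and group 3 by 6.93 ± 0.48 (adjusted p = 1.6e-10, edgeR), in contrasts that called 46.7% and 55.3% of all genes.

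The largest falls among the 838 eligible lower genes were in a pair of long genes with 1 exon each. ENSCARG00000067319 (chromosome 27, 2574610 to 2579265, plus strand, 4656 bases) had 0.131, 0.138, 0.136, 0.158 and 0.167 CPM in group 1, from 19 counts in all. In 2n males it ran from 0.643 to 9.01 CPM with a median of 3.47. The lowest diploid male lay above every group 1 male, as the choice required, and the log2 fold change was −4.78 ± 0.65 (SE, adjusted p = 0.00014, edgeR). It was lower in group 1 than in group 2 (−5.40 ± 0.59, adjusted p = 2.4e-07, edgeR) and in group 3 (−5.12 ± 0.58, adjusted p = 2.7e-07, edgeR) as well.

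ENSCARG00000057761 (unplaced scaffold QPKE01000714.1, 266772 to 273920, minus strand, 7149 bases) had 5.94, 7.32, 8.31, 5.72 and 4.73 CPM in group 1. In 2n males it ran from 10.5 to 331 CPM with a median of 138, and 9 of the 10 were above 90 CPM. Only 2n replicate 5 came near the group 1 range. The log2 fold change was −4.50 ± 0.57 (SE, adjusted p = 8.7e-05, edgeR). The other triploid males differed less from group 1, by −1.43 ± 0.44 for group 1 minus group 2 (adjusted p = 0.011, edgeR) and −0.93 ± 0.42 for group 1 minus group 3, which did not pass (adjusted p = 0.065, edgeR). The 4 named genes kept their call and direction in each of 30 alternative fits, with log2 fold changes of 7.01 to 8.82 for ENSCARG00000017953, −5.23 to −4.32 for ENSCARG00000067319 and −4.80 to −4.05 for ENSCARG00000057761. These fits share males with the choice of the genes and are no independent check.

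**Figure D3:**
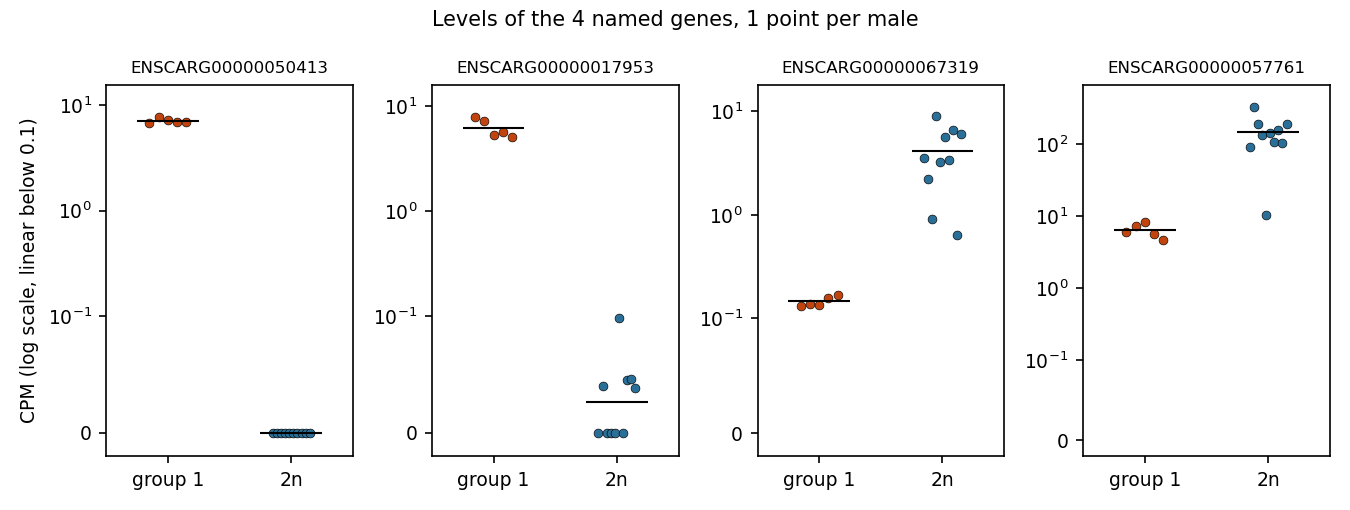
CPM of the 4 named genes in group 1 (orange, left) and 2n males (blue, right); each point is 1 male, bars are group means, and the vertical axes are logarithmic above 0.1 CPM and linear below. Lack of overlap between the groups was a condition for choosing the 4 genes, and the 10 2n males lie at 0 for ENSCARG00000050413.

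Genes silent in group 1 but expressed across the diploid males were not found: 0 genes had 0 counts in all 5 group 1 males and at least 1 CPM in all 10 2n males. A looser pattern was seen in 25 genes, which had 0 counts in group 1 and at least 1 CPM in some 2n males, 8 of the genes in 5 or more males and none in more than 8. Of these 25, 12 reached 1 CPM in males of number 14 but not of 108, and 6 in males of number 108 but not of 14. Another 6 did so in males of both numbers, and 1 only in the male of number 106. Whether the male of number 106 reached 1 CPM was not considered in sorting the other genes.

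Changed genes rarely stood in long rows along the chromosomes. In the order of tested genes, 9 rows of at least 4 neighbours were higher in group 1 and 2 rows were lower. The longest, chosen here after the values were seen, was 6 plus-strand genes between 8993113 and 9222347 on chromosome 25, a span of 229 kb that holds 7 annotated genes. The first of the 6 had 11.5, 10.7, 11.5, 9.54 and 11.0 CPM in group 1, against 0.272 to 2.48 CPM with a median of 0.894 in 2n. The third had 12.1, 12.98, 10.5, 10.5 and 10.8 CPM in group 1, against 0.257 to 0.864 CPM with a median of 0.584 in 2n. Both were far above all diploid males, and in 5 of the 6 genes the groups did not overlap.

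The log2 fold changes along this row were 3.31 ± 0.39, 4.09 ± 0.34, 4.34 ± 0.22, 2.12 ± 0.40, 1.75 ± 0.32 and 2.00 ± 0.37 (SE), the highest adjusted p being 0.0021 (edgeR). All 6 were also called without replicates 1 and 2, with log2 fold changes from 1.58 to 4.23, and against 2n males of either number. They were higher in group 1 than in group 2, by 2.22 to 5.67 on the log2 scale, and than in group 3, by 1.95 to 4.49. Each of these differences was called in the 4-group model, which called 24.9% of all genes higher in group 1 than in group 2 and 29.9% higher than in group 3. A row ends where a gene is not called, so the gene next to it on each side was uncalled by definition. The 3 tested neighbours before it had log2 fold changes of 0.52 ± 0.41, −0.16 ± 0.11 and −0.68 ± 0.45 (SE). The 3 after it had 0.48 ± 0.46, −0.45 ± 0.23 and −0.10 ± 0.15 (SE), and none of these neighbours was called. Whether the 6 annotated genes are separate genes in gibel carp was not tested.

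**Figure D4:**
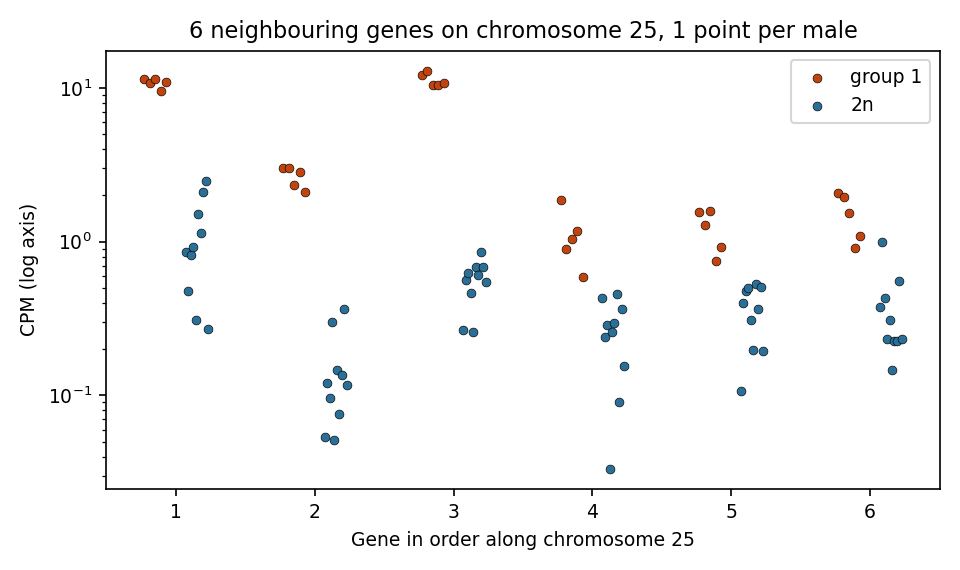
CPM on a log axis of the 6 neighbouring genes on chromosome 25 that were called higher in group 1, in their order along the chromosome; each point is 1 male. Group 1 males (orange, left of each pair) lie above all 2n males (blue, right) in the first 5 genes, and only in the sixth does the highest 2n male (1.00 CPM) exceed the lowest group 1 male (0.907 CPM).

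Of 1171 windows of 1 Mb with at least 10 tested genes, 25 held no called gene, and 95% of windows had at most 22.5% of genes called higher and 18.5% called lower. The densest windows of higher genes were on chromosome 1 from 3000001 to 4000000 (5 of 11 genes), on chromosome 16 from 2000001 to 3000000 (13 of 31) and on chromosome 42 from 5000001 to 6000000 (5 of 12). Without group 1 replicates 1 and 2, 2, 8 and 1 genes in these windows were called higher. The window on chromosome 16 scored 0.46, 0.52, 0.34, 0.38 and 0.22 in group 1 (median log2 deviation of its genes from the mean of the 15 males, relative to all genes of the male), and its 2n values ran from −0.81 to 0.06. The window was chosen for its calls in these same males, so these scores only describe it. Its genes had log2 fold changes from −0.53 to 4.06. It opens with 7 genes of 1 exon on the minus strand, of which 4 were called higher. Some of them have the same length, and where they are near-identical copies their reads could be divided or lost in counting, so single members are uncertain. The other 9 higher genes of the window were among its 24 genes with more exons.

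The densest windows of lower genes held fewer calls. They were on chromosome 43 from 20000001 to 21000000 (4 of 13 genes), on chromosome 15 from 21000001 to 22000000 (4 of 13, beside 1 higher) and on chromosome 22 from 20000001 to 21000000 (3 of 10, beside 2 higher). Without replicates 1 and 2, 1, 1 and 2 genes were called lower in them. These windows, too, were chosen for their calls in the same males, and the scores only describe them. On chromosome 15 the window scored −0.24, −0.15, −0.18, −0.13 and −0.14 in group 1, and from −0.04 to 0.29 in 2n. On chromosome 22, the groups overlapped, with −0.60 to 0.11 in group 1 and −0.74 to 0.84 in 2n, and the diploid males were split. All 5 males of number 14 were above 0.15, and 3 of the 4 males of number 108 were below −0.28.

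Differences of whole chromosomes were small. The score of a chromosome in a male was the median over its genes of log2 CPM minus the mean of the 15 males, less the same median over all genes. Over the 50 numbered chromosomes, group 1 minus 2n ran from −0.08 to 0.06 on the log2 scale, or from 0.945-fold to 1.04-fold. Of these differences, 8 (16%) passed the exact two-sided permutation test with Benjamini-Hochberg adjustment, which allows no p below 0.000333, and 17 had an unadjusted p under 0.05. Chromosomes 7, 8, 13 and 32 scored higher and chromosomes 4, 20, 24 and 50 lower in group 1.

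The highest score difference was on chromosome 13, at 0.056, with 0.084, 0.046, 0.031, 0.008 and 0.030 in group 1 and −0.058 to 0.029 in 2n (adjusted p = 0.011, exact permutation). Chromosome 32 followed at 0.051 (adjusted p = 0.013, exact permutation), with 13% of its genes called higher, the highest share of any chromosome. The lowest was on chromosome 50, at −0.081, with −0.105, −0.085, −0.027, −0.012 and −0.027 in group 1 and −0.022 to 0.068 in 2n (adjusted p = 0.011, exact permutation). Chromosome 47 was next at −0.070 and did not pass (unadjusted p = 0.023, adjusted p = 0.096, exact permutation). Without 2n replicate 7, whose score of 0.196 stood far above the other 2n males, its difference was −0.050 with an unadjusted exact permutation p of 0.0050.

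The 8 chromosomes kept the sign of their difference in every alternative. They were chosen on the same males that the alternatives use, so the kept sign is no independent support. Their calls did not all hold. With the mean over genes in place of the median, 10 chromosomes passed, among them 4, 20, 32 and 50. Chromosome 13 then differed by 0.043 (adjusted p = 0.18, exact permutation), 7 by 0.019 (adjusted p = 0.45), 8 by 0.025 (adjusted p = 0.13) and 24 by −0.026 (adjusted p = 0.38), all by exact permutation. Without group 1 replicates 1 and 2, where 3 against 10 males allow no p below 0.0035, 0 chromosomes passed the exact permutation test and 7 had an unadjusted p under 0.05; the 8 differences were then 0.014 to 0.043 in size, with −0.043 on chromosome 4 and −0.039 on chromosome 50. Against 2n males of number 14, where 5 against 5 males allow no p below 0.00794, 0 passed as well. The differences there stayed close to those above on chromosomes 50 (−0.077), 4 (−0.059) and 32 (0.053). Against those of number 108, 8 chromosomes passed, among them 4, 8, 13, 20 and 50. Chromosome 7 then differed by 0.016 (adjusted p = 0.47), 24 by −0.028 (adjusted p = 0.29) and 32 by 0.052 (adjusted p = 0.079), all by exact permutation. Without replicate 2 alone 0 passed, with 0.053 on chromosome 13 and −0.067 on chromosome 50.

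Called genes were spread over all chromosomes. The share called higher in group 1 ran from 5.73% on chromosome 4 to 13% on chromosome 32 with a median of 9.84%, and the share called lower from 5.09% on chromosome 31 to 10.8% on chromosome 48 with a median of 8.01%. Genes on unplaced scaffolds (8682 tested) were called higher in 9.70% and lower in 8.21%, close to the 9.90% and 7.75% of the 32055 genes on numbered chromosomes.

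**Figure D5:**
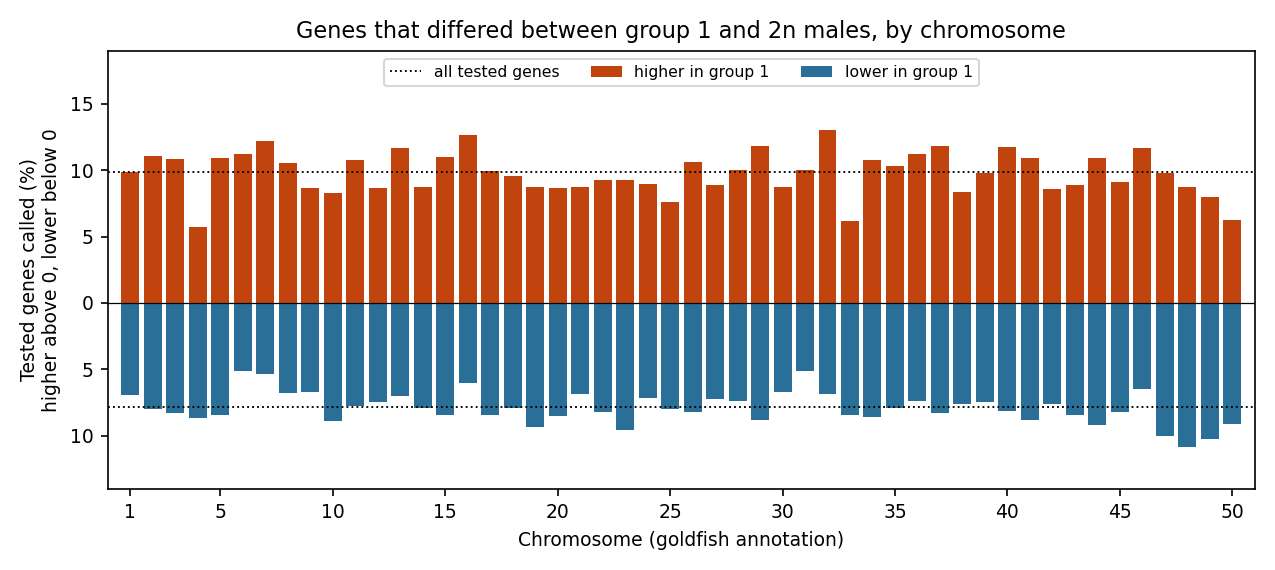
Percent of tested genes called higher (orange, above 0) and lower (blue, below 0) in group 1 than in 2n on each numbered chromosome; dotted lines mark 9.85% and 7.85%, the shares over all tested genes. Bars stay between 5.09% and 13% on every chromosome in both directions.

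Long genes of 1 exon, a class described here because the 2 named genes that fell belong to it, held larger shares of both lower and higher calls than all tested genes (7.85% and 9.85%). Of 191 tested genes with 1 exon and over 3000 bases, 19.9% were called lower and 15.7% higher than in 2n, with a median log2 fold change of −0.28. Of 1389 shorter genes of 1 exon, 5.62% were lower and 12.0% higher, with a median of 0.11. Without group 1 replicates 1 and 2, the median of the long genes was −0.44 and of 226 genes 8.85% were called lower and 3.98% higher, beside 2.06% and 3.81% of all genes. These shares were not compared by a test. What these genes encode is not known from the files, and their copies may share reads.

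Transcripts of the mitochondrial genome, which encodes subunits of the respiratory chain and ATP synthase, showed no called change. Its 15 tested features had log2 fold changes from −1.03 to 0.19, 8 of them positive and 7 negative, and 0 were called by edgeR, with 2 at an unadjusted p under 0.05. By their position, 13 of them matched named protein genes of the gibel carp mitochondrial genome. Among subunits of complex I, ND1 had 396 ± 67.0 CPM in group 1 (SD, n = 5) and 394 ± 122 CPM in 2n (SD, n = 10), and ND5 had 389 ± 57.2 CPM in group 1 and 355 ± 96.5 CPM in 2n. ND6, the 1 protein gene on the minus strand, had 2.83 ± 0.75 CPM in group 1 and 4.23 ± 1.42 CPM in 2n (log2 fold change −0.58 ± 0.26 SE, adjusted p = 0.12, edgeR). COX1, the core subunit of cytochrome oxidase, had 3327 ± 913 CPM in group 1 and 3567 ± 701 CPM in 2n. CYTB, a subunit of complex III, had 949 ± 173 CPM in group 1 and 876 ± 182 CPM in 2n.

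The feature at 2017 to 3697 of the mitochondrial sequence came closest to a call. It had 196, 269, 316, 211 and 315 CPM in group 1, and ran from 209 to 1196 CPM with a median of 451 in 2n. The groups overlap, and the highest diploid values, 1196 and 928 CPM, were those of replicates 5 and 6. Its log2 fold change was −1.03 ± 0.35 (SE, adjusted p = 0.051, edgeR). It was called with RLE scaling, DESeq2, weighted voom, the 4-group model, against number 14 and without 2n replicate 3, 4 or 9. The feature at 991 to 1944 was called, at −1.01, only against number 14.

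Group 1 libraries held slightly more different genes. At an equal depth of 15375923 counts, 50953 ± 728 genes were seen in group 1 (SD, n = 5) and 49653 ± 746 in 2n (SD, n = 10), a difference of 1300 (adjusted p = 0.036 over 4 measures, exact two-sided permutation). Replicates 1 and 2 had the highest values, 51828 and 51547. Without them the difference was 810 and did not pass (adjusted p = 0.35, exact permutation). The number of genes that hold 50% of the counts was 2898 ± 513 in group 1 and 2682 ± 278 in 2n (adjusted p = 0.45, exact permutation). It was 3609 and 3274 in group 1 replicates 1 and 2, and 2454 to 2585 in replicates 3 to 5. Neither the mitochondrial share of counts (1.00% ± 0.116 in group 1, 0.978% ± 0.178 in 2n) nor that of 1-exon genes (1.07% ± 0.0701 in group 1, 1.15% ± 0.145 in 2n) passed the exact permutation test (adjusted p = 0.79 and 0.45).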

How the data were processed

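Polyadenylated RNA was sequenced as stranded read pairs, per the labels' protocols. The submitters' processing notes name cutadapt 4.3, STAR 2.7.3a and Picard 2.25.6. The deposited values are raw counts per gene from featureCounts 2.0.6, per the file headers: reverse-stranded (setting 2), paired fragments of 1 to 25000 bases, minimum mapping quality 0, goldfish annotation. No source used here says whether duplicates were removed by molecular identifiers. Groups came from the sample titles. Genes were tested with edgeR 4.0.16 in R 4.3.3 (with limma 3.58.1), using only the 15 males, TMM scaling, a minimum count of 10 and robust quasi-likelihood fits; log2 CPM used a prior count of 2. CPM values were computed here. Standard errors came from the F statistic. The test was checked on simulated data in which males of a group varied independently. That check does not cover subgroups such as group 1 replicates 1 and 2, or related males. Measures with 1 value per male used exact permutation tests (3003 permutations). The named genes, taken from called genes without overlap between groups whose mean log2 CPM was 1 or more, are the 2 that rose most and the 2 that fell most. The comparison, members and lists were chosen with earlier results of these data known; the gene lists matched 0 IDs. No pair of libraries was identical; the lowest chi-square per gene was 5.40. SE and SD values include the spread between males, and floors cover counting error only. Alternatives were other scalings, filters, thresholds, tools (DESeq2 1.42.0, limma-voom), a replicate block, other sets of males and leaving out each male.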

Additional observations from a re-analysis of the deposited data

Results flagged for a closer look

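Of 76 sets of values checked, each being the males of 1 group for 1 measure, 10 held a male whose gap to its nearest neighbour was large for the range of the group; chance alone flags about 1 in 20 such sets. In 3 of them, group 1 replicate 1 was the lowest of its group on the mitochondrial genome in TMM-scaled CPM. It had ND1 at 278 CPM (the others from 403 to 437), ATP6 at 444 CPM (596 to 658) and ND5 at 290 CPM (401 to 439). This male had the largest TMM factor, 1.31 (the others from 0.86 to 1.23), which lowers all its scaled values. Whether it stands out on total counts alone was not tested. Among 2n males, replicate 10 was highest for ND2 at 494 CPM (next 289) and replicate 5 for COX2 at 1872 CPM (next 1452). In 2n replicate 2, 3334 genes held 50% of the counts (next 2848), and 1-exon genes took 1.53% of counts (next 1.21%). ENSCARG00000017953 was highest among 2n males in replicate 6, at 0.0981 CPM (next 0.046), a difference of few counts. The score of chromosome 8 was 0.0167 in 2n replicate 6 (next −0.0012).

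The score of chromosome 47 was 0.196 in 2n replicate 7, with 0.0336 next. In this male, genes of chromosome 47 between 1000001 and 5000000 lay at medians of 0.65, 0.60, 0.58 and 0.70 above the other 2n males (log2, by 1 Mb window), those from 5000001 to 6000000 at 0.35, and those of the next window at −0.24. It was 1 of 4 among 750 scores of a male and a chromosome that were beyond 0.1 in size; the other 3 were group 1 replicate 1 on chromosomes 25 (−0.147) and 50 (−0.105) and group 1 replicate 5 on chromosome 33 (0.112).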

How the results depend on the processing

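The count of genes changed in group 1 (7355) stayed within 1.5 times under other scalings, filters and limma-voom. It was 11271 with DESeq2, 11648 with weighted voom, 13558 in the 4-group model, 2704 at adjusted p under 0.01, 2493 without group 1 replicates 1 and 2, 4727 and 936 with group 1 males of 31 °C or 28 °C only, and 4154 to 8466 with 1 male left out (lowest without group 1 replicates 2 and 1). The replicate block gave 1767. Replicate numbers are not said to pair the males, and whether they do was not tested. The correlations of deviations for replicate numbers 1 to 5 were −0.26, 0.25, 0.10, −0.13 and −0.07. No gene called in both was called in the opposite direction in any alternative. Genes whose groups do not overlap (2692) numbered 4378 without replicates 1 and 2, 7906 and 8331 against 2n number 14 or 108, and 2917 to 3391 with 1 group 1 male left out; fewer males overlap less by construction. Chromosomes passing the test (8) were 3 among genes of log2 CPM of at least 3 (2 of them among the 8) and 0 to 10 with 1 group 1 male left out. They were 0 without replicates 1 and 2 (unadjusted 7) and 0 against number 14 (unadjusted 13), where fewer males raise the lowest possible p to 0.0035 and 0.00794. The 8 differences, chosen on the same males, kept their sign in all of these. Their sizes were 0.022 to 0.081 in the main test and 0.0076 to 0.054 among genes of log2 CPM of at least 3. They were 0.014 to 0.043 without replicates 1 and 2 and 0.016 to 0.077 against number 14. The difference in genes seen (1300) lost its call without equal depth (1504), without replicates 1 and 2 (810) and in 3 of 5 fits with 1 group 1 male left out (1081 to 1508 over the 5). The genes holding 50% of counts were −147 without replicates 1 and 2, against 37.9 to 327 with 1 left out; the mitochondrial share differed by −0.00265 to 0.0672 percentage points. Among uncalled mitochondrial features, the sign turned for 991 to 1944 (0.10 with weighted voom, 0.52 against number 108), ND2 (−0.30 against number 108) and COX1 (0.11 with weighted voom, 0.13 without replicates 1 and 2). The causes were not tested. Depth limits the rarest genes: a floor of 3 counts was 0.0138 CPM over 2n.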
